A study of Homo sapiens with 15 samples.

Results

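RNA-Seq of BEAS-2B cells was examined here for 9 genes of the prostaglandin pathway, out of 58219 genes in the count table. The genes were chosen by symbol: PLA2G4A, PTGS1 and PTGS2 for the first steps of synthesis, PTGES, PTGES2 and PTGES3 for the last step, HPGD for breakdown, and PTGER2 and PTGER4 as receptors. All 9 passed the filter on low counts and were among the 17599 genes tested. Among the members, the lowest adjusted p-values after PM2.5 were those of PTGER4 and PTGER2, which encode receptors for prostaglandin E2. PTGER4 and PTGER2 fell with 30 µg/cm2 for 24 h, and HPGD, present at only a few reads, fell with them. Daily treatment with 1 µg/cm2 gave lower PTGER4 in each experiment. This difference passed the threshold in 5 of 16 alternative fits and not in the one used throughout.

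BEAS-2B is a single line of virally immortalized human bronchial epithelial cells, grown here in serum-free Bronchial Epithelial Growth Medium on collagen-coated plates. There were 15 libraries in 5 conditions, with 3 independent experiments each: at 24 h a vehicle control and PM2.5 at 1 µg/cm2 and at 30 µg/cm2, and in a repeated protocol that ended on day 7 a vehicle control and PM2.5 at 1 µg/cm2, renewed daily. PM2.5, fine particulate matter of outdoor air, was washed off filters exposed in Beijing by sonication in water. The labels give 7 daily doses in the repeated protocol, while the study's methods describe one fewer. Cells of the repeated protocol were plated more sparsely and were washed between treatments, so time in culture and plating cannot be told apart between the protocols. Whether an experiment number stands for the same experiment in both protocols is not given in the sources used here.

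Each library held 21460981 to 34724765 counted reads (median 29243177). All 7 epithelial markers passed the filter, and so did all 3 mesenchymal and all 7 fibroblast markers. PTPRC of leukocytes had at most 2 counts in a library, and the 4 endothelial markers had at most 8 counts. CD14, on the leukocyte list, had 62 to 515 counts. At 24 h, experiment 2 stood apart from experiments 1 and 3: the mean absolute difference in log2 CPM between libraries of one condition was 0.519 to 0.738 with experiment 2 and 0.238 to 0.287 without it, against 0.208 to 0.313 in the repeated protocol. Results at 24 h are therefore also given without experiment 2, which leaves 2 libraries per condition. Experiment 2 was left out because it differed, so adjusted p-values of that fit do not include the spread it adds between experiments. CPM are counts per 1000000 counted reads after TMM scaling, and log2 fold-changes, their SE and adjusted p-values are from edgeR's quasi-likelihood test with Benjamini-Hochberg adjustment over all genes tested. Genes were called where the adjusted p was below 0.05 and the log2 fold-change was 0.6 or more in size.

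Prostaglandins are made from arachidonic acid, which cytosolic phospholipase A2 releases from membrane lipids. The cyclooxygenases turn it into prostaglandin H2, terminal synthases turn that into prostaglandin E2, and 15-hydroxyprostaglandin dehydrogenase inactivates the product. Airway epithelium is a known source of prostaglandin E2, which acts on neighbouring cells through G protein-coupled receptors, and the EP2 and EP4 receptors both raise cyclic AMP. RNA levels alone were measured here, and in RNA from a whole culture, fewer cells with a transcript and less of it per cell cannot be told apart.

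In the 24-h vehicle controls, levels per kilobase of exon (RPKM) differed widely between members. PTGES3, a terminal synthase that is also a co-chaperone of HSP90, was highest at 186 ± 24.7 RPKM (SD, n = 3). PTGES2, a membrane-associated synthase, followed at 28.1 ± 3.67 and PTGES, the inducible microsomal synthase, at 7.61 ± 1.57 RPKM. Next came PTGER4 at 3.40 ± 1.65, PTGER2 at 3.07 ± 0.576, PTGS1 at 2.07 ± 0.906 and PLA2G4A at 1.42 ± 0.781 RPKM, and the ranges of neighbours in this stretch overlapped. PTGS2, the inducible cyclooxygenase, was at 0.118 ± 0.0329 and HPGD was lowest, at 0.0452 ± 0.0264 RPKM. In the controls of the repeated protocol this last pair stood in the opposite order, with HPGD at 0.267 ± 0.0815 and PTGS2 at 0.0404 ± 0.0148 RPKM, and the ranges did not overlap.

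**Figure D1:**
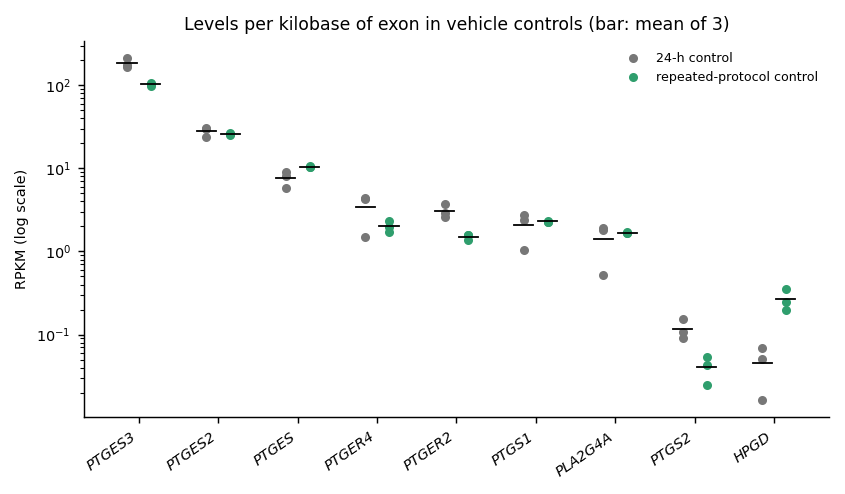
Levels of the 9 genes in vehicle controls, in RPKM on a log scale; points are libraries (3 per protocol), bars are means, grey is the 24-h protocol and green the repeated protocol. PTGES3 is highest in both protocols, and HPGD stands below PTGS2 in the 24-h controls and above it in the repeated protocol.

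Treatment with 30 µg/cm2 for 24 h called 3 of the 9 members, all lower, where 8.07% of all genes tested were called in either direction and 4.24% lower. The ranges of these 3 did not overlap those of the controls, which held for 22.8% of all genes. The median log2 fold-change of the 9 members was -0.44, against 0.03 over all genes tested. With 1 µg/cm2 for 24 h no member was called by edgeR's quasi-likelihood test, against 0.0625% of all genes. At an unadjusted p-value under 0.05 there were 2 members, and DESeq2 and edgeR's likelihood ratio test called 0. With 1 µg/cm2 daily, 0 members were called, against 0.227% of all genes, with 2 at an unadjusted p-value under 0.05 and 1 called by DESeq2. DESeq2 called 251 of all genes there. For neither treatment with 1 µg/cm2 is the share of all genes at that unadjusted cut given here, so these member counts have no background beside them. With experiments entered as a replicate block, 1 member was called there, where 4.39% of all genes were. Both 24-h treatments were compared with the same control libraries. The summed CPM of the 7 epithelial markers was 1014 to 1546 CPM with 30 µg/cm2, against 2165 to 2904 in the 24-h controls and 1874 to 3340 with 1 µg/cm2, and 1885 to 2042 CPM with daily treatment against 2750 to 3430 in its controls. With 30 µg/cm2 the keratins KRT5 (-2.46 on the log2 scale), KRT19 (-1.48) and KRT8 (-0.85) and the cadherin CDH1 (-0.70) were called lower, and EPCAM (-0.16), KRT17 (-0.35) and KRT18 (-0.45) were not called. With daily treatment KRT5 (-0.93) was called lower. The 3 mesenchymal markers VIM, CDH2 and FN1 summed to 547 to 573 CPM with daily treatment, below the 860.5 to 933 CPM of its controls, and to 1573 to 2602 CPM with 30 µg/cm2 against 1624 to 2822 CPM. None of these 3 was called in either comparison. On the log2 scale VIM, CDH2 and FN1 were at -0.35, 0.07 and -0.80 with daily treatment, and at -0.57, 0.23 and 0.09 with 30 µg/cm2. Of the 7 fibroblast markers PDGFRB alone was called with 30 µg/cm2, lower at -1.60 (adjusted p = 0.00428). The part of these shifts in the members' changes was not tested.

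**Figure D2:**
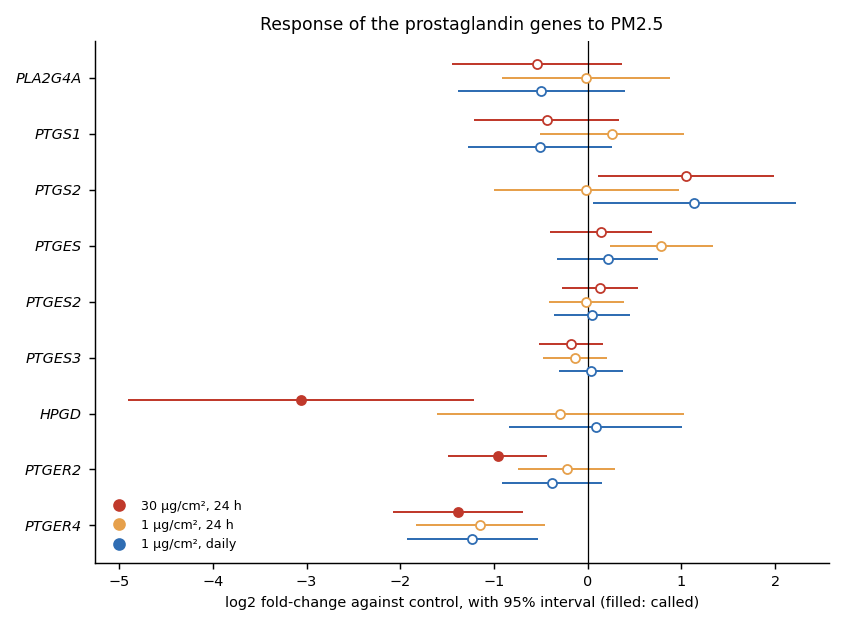
Log2 fold-change of each of the 9 genes against its vehicle control with the 95% interval, for 30 µg/cm2 at 24 h (red), 1 µg/cm2 at 24 h (orange) and 1 µg/cm2 daily (blue); filled points passed both thresholds. Only HPGD, PTGER2 and PTGER4 with 30 µg/cm2 are filled, and PTGER4 lies below 0 in all 3 treatments.

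The members for the release of arachidonic acid and the cyclooxygenase step, PLA2G4A, PTGS1 and PTGS2, were not called with any treatment in the fit of all libraries. Of other listed genes that bear on the release, PLA2G4C and ANXA1 were called with 30 µg/cm2, as given below. PLA2G4A, the cytosolic phospholipase A2 (ENSG00000116711.9, GRCh38 chromosome 1, 186828953 to 186988981, plus strand), had 5.21, 1.51 and 5.56 CPM in the 24-h controls of experiments 1, 2 and 3, and 2.99, 2.05 and 3.50 CPM with 30 µg/cm2. Experiment 2 was the lowest of each group, and the groups overlapped. This gave a log2 fold-change of -0.54 with an SE of 0.423 (adjusted p = 0.492), and without experiment 2 it was -0.75 (adjusted p = 0.00222) and was called. With daily treatment the values were 3.37, 3.55 and 3.37 CPM, below the 4.79, 4.92 and 4.83 CPM of its controls without overlap, or -0.50 on the log2 scale (SE 0.416, adjusted p = 0.687). The treated and control ranges of 42.9% of all genes tested did not overlap in that comparison, so a lack of overlap there is common.

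PTGS1, the cyclooxygenase that most cells make at a steady level (ENSG00000095303.14, chromosome 9, 122370530 to 122395703, plus strand), had 13.9, 6.07 and 16.0 CPM in the 24-h controls. With 1 µg/cm2 it had 17.7, 6.74 and 18.7 CPM and with 30 µg/cm2 7.43, 11.0 and 8.24 CPM. Experiments 1 and 3 were thus lower than their controls with 30 µg/cm2 and experiment 2 was higher. For 30 µg/cm2 this came to -0.44 on the log2 scale (SE 0.359, adjusted p = 0.517), and -0.95 (adjusted p = 3.70e-05) without experiment 2. With daily treatment PTGS1 had 10.8, 8.95 and 8.36 CPM against 13.2, 13.2 and 13.7 CPM in its controls, -0.51 on the log2 scale (SE 0.357, adjusted p = 0.624). All 3 experiments were lower after daily treatment, whereas all 3 were higher after 1 µg/cm2 for 24 h.

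PTGS2, the cyclooxygenase that inflammatory signals induce (ENSG00000073756.11, chromosome 1, 186671791 to 186680427, minus strand), was counted at few reads. Its counts were 16, 12 and 23 in the 24-h controls, 28, 9 and 12 with 1 µg/cm2 and 44, 19 and 37 with 30 µg/cm2. In CPM these were 0.482, 0.565 and 0.815 for the controls and 1.44, 0.659 and 1.77 for 30 µg/cm2, so experiment 2 with 30 µg/cm2 was within the range of the controls and the other two were above it. On the log2 scale PTGS2 was 1.04 higher (SE 0.438, 95% interval 0.10 to 1.98, adjusted p = 0.160), which did not pass. It was 1.30 (adjusted p = 0.0243) without experiment 2, and 1.36 (adjusted p = 0.0340) without its 30 µg/cm2 library alone. With 1 µg/cm2 for 24 h the log2 fold-change was -0.01 (SE 0.458, 95% interval -0.998 to 0.970). Daily treatment gave 14, 12 and 20 counts against 6, 4 and 9 in its controls. PTGS2 was higher in each of these 3 experiments, by 0.99, 1.43 and 1.14 on the log2 scale, and the groups did not overlap. At this depth the log2 fold-change of 1.14 had an SE of 0.505 and an adjusted p of 0.391. PTGS2 and PLA2G4A lie 148525 bases apart on chromosome 1, and no other gene of the table overlaps either.

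The 250 bases before the RefSeq start of PTGS2 are printed because this is the member whose transcription is best known to respond to outside signals. The window is chr1:186680424-186680673 of GRCh38.p14 on the minus strand, written 5′ to 3′ along the gene, and its last 4 bases are exonic in the count table. Capitals mark a match to the core of the cyclic AMP response element, which reads TGACG on the other strand, at -58 to -54. They also mark the TATA box TATAAA at -32 to -27, where -1 is the last base before the start.
PTGS2: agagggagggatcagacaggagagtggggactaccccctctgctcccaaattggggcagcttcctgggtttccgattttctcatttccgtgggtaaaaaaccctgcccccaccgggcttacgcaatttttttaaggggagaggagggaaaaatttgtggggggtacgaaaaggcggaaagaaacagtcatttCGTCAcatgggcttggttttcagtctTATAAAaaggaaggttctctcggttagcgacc
Both strands were searched for the TATA box, the cyclic AMP response element as TGACGTCA and its core as TGACG, the GC box GGGCGG, the AP-1 site TGANTCA, the xenobiotic response element core GCGTG, the antioxidant response element TGACNNNGC, the E box CACGTG and the NF-kappaB consensus. Of 35116 promoter windows of this length, 10.7% held TATAAA and 21.2% held TGACG. The NF-kappaB consensus was searched as GGGRNNYYCC, where R is A or G, Y is C or T and N is any base. Only exact matches are marked, so a site that departs from its pattern stays in small letters. A match describes letters and is not a binding site.

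The balance of the cyclooxygenases was also followed as the PTGS2 share of PTGS1 plus PTGS2, in percent of their summed RPKM. In the 24-h controls the share was 3.66%, 9.27% and 5.30% in experiments 1, 2 and 3, and with 30 µg/cm2 it was 17.6%, 6.16% and 19.1%. Experiments 1 and 3 were above every control, and experiment 2 was below its own control. The mean was 6.08% ± 2.89 (SD, n = 3) in the controls, 4.93% ± 2.25 with 1 µg/cm2 and 14.3% ± 7.09 with 30 µg/cm2. In the repeated protocol the share was 1.87%, 1.06% and 2.22% in the controls and 4.40%, 4.08% and 7.58% with daily treatment, without overlap. PTGS1 was the more abundant transcript in all 15 libraries.

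The terminal synthases were the most abundant members and none was called in any of the 3 treatments. PTGES (ENSG00000148344.10, chromosome 9, 129738331 to 129753047, minus strand) had 15.17, 11.16 and 16.97 CPM in the 24-h controls and 25.9, 23.8 and 25.0 CPM with 1 µg/cm2. Every library with 1 µg/cm2 was above every control, which held for 4.44% of all genes in either direction. The log2 fold-change was 0.79 (SE 0.255, 95% interval 0.24 to 1.33), with an adjusted p of 1.00, and it was 0.67 (adjusted p = 0.0134) and called without experiment 2. With 30 µg/cm2 the values were 12.1, 24.2 and 11.5 CPM, so experiment 2 was higher than its control and the other two were lower. Between 30 and 1 µg/cm2 PTGES was -0.64 on the log2 scale (SE 0.254, adjusted p = 0.133). It was -1.13 (adjusted p = 2.74e-05) without experiment 2 and -1.09 (adjusted p = 0.00225) without its 30 µg/cm2 library alone.

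PTGES2 (ENSG00000148334.14, chromosome 9, 128120693 to 128128462, minus strand) ranged from 71.9 to 123 CPM over the 15 libraries, and its log2 fold-change was 0.13, -0.01 and 0.04 with 30 µg/cm2, 1 µg/cm2 and daily treatment, each with an SE of 0.188. PTGES3 (ENSG00000110958.15, chromosome 12, 56663341 to 56688408, minus strand) had 463 to 728 CPM at 24 h and 331 to 369 CPM in the repeated protocol. Its log2 fold-change was -0.18, -0.13 and 0.04 for the same treatments (SE 0.159 each). These were the most precisely measured members: the 95% intervals of PTGES3 reached no further from 0 than -0.52 on one side and 0.38 on the other. The table also holds 5 PTGES3 pseudogenes with at most 169 counts in a library, against at least 9162 for PTGES3.

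HPGD, 15-hydroxyprostaglandin dehydrogenase (ENSG00000164120.13, chromosome 4, 174490177 to 174523154, minus strand), was at the edge of detection at 24 h. It had 3, 8 and 8 counts in the controls, 4, 5 and 6 with 1 µg/cm2 and 1, 1 and 0 with 30 µg/cm2. Every library with 30 µg/cm2 was below every control and every library with 1 µg/cm2. In counts summed over the 3 libraries, 19 against 2, the control rate was 9.21 times that with 30 µg/cm2, with an exact 95% interval of 2.22 to 81.5 that covers counting error only. edgeR's adjusted p was 0.0365, at a fitted log2 fold-change of -3.06 (SE 0.859) that depends on how such low counts are smoothed. The call was lost without experiment 2 (adjusted p = 0.0861), without control library 2 (0.112) or 3 (0.0964), and without the 30 µg/cm2 library of experiment 1 (0.112), 2 (0.0520) or 3 (0.123). With daily treatment HPGD had 31, 40 and 82 counts against 29, 42 and 63 in its controls, a log2 fold-change of 0.09 (SE 0.429, 95% interval -0.84 to 1.01).

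**Figure D3:**
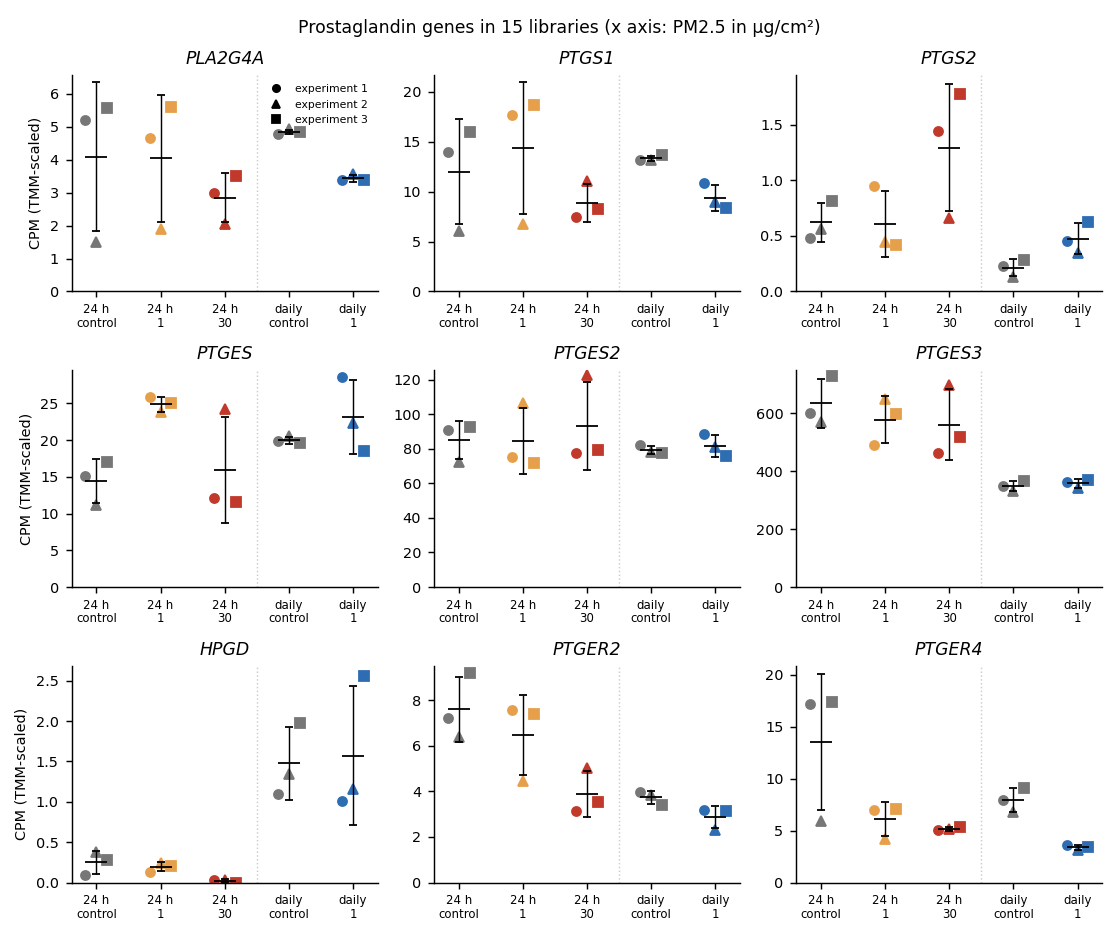
TMM-scaled CPM of the 9 genes in all 15 libraries, on linear axes; points are libraries with the experiment number as their shape, the horizontal mark is the mean and the bars are 1 SD (n = 3), cut at 0. The triangles of experiment 2 lie apart in at least 1 condition at 24 h for PLA2G4A, PTGS1, PTGS2, PTGES, PTGES2, PTGES3, PTGER2 and PTGER4. HPGD is near 0 at 24 h and at 1.01 to 2.56 CPM in the repeated protocol.

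The 2 prostaglandin E2 receptor genes among the members fell with 30 µg/cm2. The other receptor genes for prostaglandin E2, PTGER1 and PTGER3, had at most 7 and 3 counts in a library and did not pass the filter. PTGER4, which encodes EP4 (ENSG00000171522.5, chromosome 5, 40679498 to 40693735, plus strand), had 17.2, 5.93 and 17.4 CPM in the 24-h controls and 5.03, 5.13 and 5.36 CPM with 30 µg/cm2. The treated libraries were close together and all below the controls, among which experiment 2 was far lower than the other two. PTGER4 was 2.61-fold lower, or -1.39 on the log2 scale (SE 0.323, adjusted p = 0.0142). Within experiments 1, 2 and 3 the log2 ratio was -1.77, -0.21 and -1.70, and without experiment 2 the log2 fold-change was -1.75 (adjusted p = 1.59e-07). The adjusted p rose just past the threshold without control library 1 (0.0544) or 3 (0.0586) or the 30 µg/cm2 library of experiment 1 (0.0582) or 3 (0.0556), and to 0.124 when only the compared libraries were fitted. TTC33 overlaps PTGER4 on the other strand but shares no exon bases with it.

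With 1 µg/cm2 for 24 h PTGER4 had 6.94, 4.21 and 7.09 CPM. Each library was below its own control, by 1.31, 0.49 and 1.29 on the log2 scale in experiments 1, 2 and 3, although the groups overlapped because the control of experiment 2 was at 5.93 CPM. The log2 fold-change was -1.15 (SE 0.320), close in size to that with 30 µg/cm2, with an adjusted p of 0.908. It was called without experiment 2, at -1.29 (adjusted p = 4.18e-05), and without the control library of experiment 2 alone, at -1.48 (adjusted p = 0.00882). Between 30 and 1 µg/cm2 the log2 fold-change was -0.24 (SE 0.323, 95% interval -0.93 to 0.45).

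Daily treatment gave 3.60, 3.12 and 3.40 CPM of PTGER4 against 7.91, 6.78 and 9.13 CPM in its controls. The groups did not overlap, and the log2 ratio was -1.14, -1.12 and -1.43 within experiments 1, 2 and 3. The log2 fold-change of -1.23 (SE 0.326) had an adjusted p of 0.139 and was not called in the fit of all 15 libraries. The replicate block gave -1.23 (adjusted p = 0.00915), a call, as it was when only the compared libraries were fitted (adjusted p = 0.000480), by DESeq2 (0.0130), by the likelihood ratio test (0.0329) and without the filter on low counts (0.0328). In the same order these 5 fits called 773, 1029, 251, 194 and 92 of all genes, against 40 in the fit used throughout. In the other 11 of 16 alternatives, all with edgeR's quasi-likelihood test, PTGER4 was not called (adjusted p up to 0.512). The difference between the response to daily treatment and the response to 1 µg/cm2 for 24 h was -0.09 (SE 0.450, 95% interval -1.05 to 0.88), and neither a member nor any other gene was called for that difference by edgeR's quasi-likelihood test (0.0%, with 0 members and 1245 genes at an unadjusted p-value under 0.05, and 0 members and 66 genes called by DESeq2).

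PTGER2, which encodes EP2 (ENSG00000125384.6, chromosome 14, 52314305 to 52328606, plus strand), had 7.23, 6.40 and 9.18 CPM in the 24-h controls, 7.58, 4.46 and 7.41 CPM with 1 µg/cm2 and 3.12, 5.03 and 3.54 CPM with 30 µg/cm2. All libraries with 30 µg/cm2 were below all controls. PTGER2 was 1.95-fold lower, or -0.96 on the log2 scale (SE 0.247, adjusted p = 0.0233), and -1.32 (adjusted p = 4.34e-05) without experiment 2. The call was lost without control library 3 (adjusted p = 0.0878), without the 30 µg/cm2 library of experiment 1 (0.108) or 3 (0.102), and with only the compared libraries (0.115). With 1 µg/cm2 for 24 h the log2 fold-change was -0.23 (SE 0.242, 95% interval -0.75 to 0.29). Daily treatment gave 3.18, 2.31 and 3.15 CPM against 3.95, 3.86 and 3.42 CPM, each library below every control, or -0.38 on the log2 scale (SE 0.249, adjusted p = 0.592).

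The promoter window of PTGER2 is shown as that of a receptor gene that fell with 30 µg/cm2. It is chr14:52314062-52314311 of GRCh38.p14 on the plus strand, and its last 7 bases are exonic in the count table. From the 5′ end, capitals mark GCGTG on the other strand (-237 to -233), the NF-kappaB consensus, also on the other strand (-155 to -146), TGACG (-137 to -133) and the GC box on the other and on this strand (-68 to -63 and -49 to -44), and none of these matches overlap.
PTGER2: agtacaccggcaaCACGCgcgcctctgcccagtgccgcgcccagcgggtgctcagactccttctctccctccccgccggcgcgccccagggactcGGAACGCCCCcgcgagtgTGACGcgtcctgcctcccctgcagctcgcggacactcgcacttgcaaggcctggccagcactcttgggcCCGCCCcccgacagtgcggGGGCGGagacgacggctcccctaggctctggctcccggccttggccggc
It held no TATAAA, and its GC content of 74.0% stood against 50.4% for PTGS2 and a median of 58% over all windows. The GC box was found in 42.6% of all windows, GCGTG in 32.2% and the NF-kappaB consensus in 9.96%. The windows of PTGER4 and HPGD lie wholly within exons of the count table and are not printed.

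**Figure D4:**
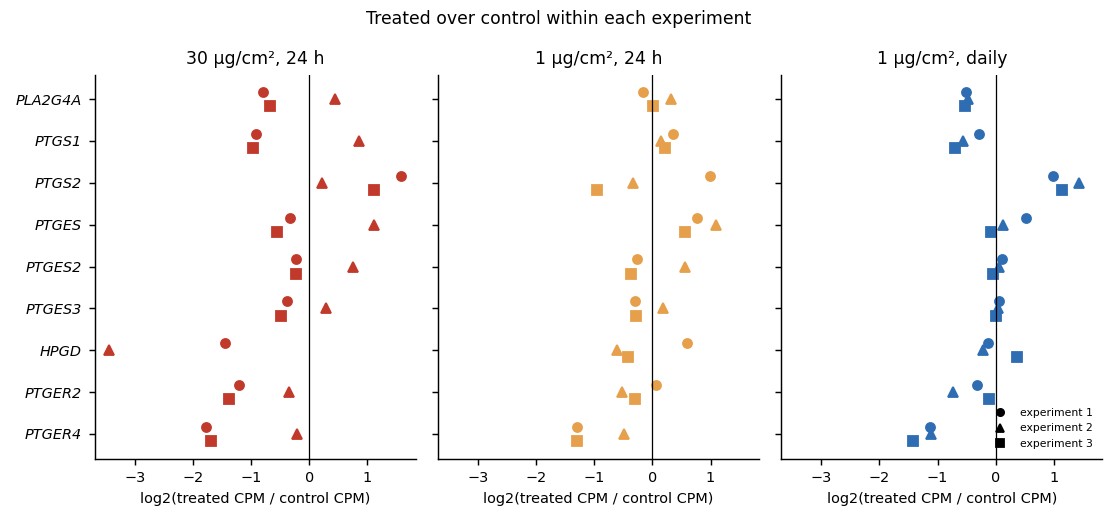
Log2 ratio of treated over control CPM within each experiment, for 30 µg/cm2 at 24 h, 1 µg/cm2 at 24 h and 1 µg/cm2 daily; each point is 1 experiment and HPGD with 30 µg/cm2 in experiment 3 has no ratio because it had 0 counts. Both 24-h treatments are set against the same 3 control libraries, so their points for one experiment are not independent. PTGER4 is left of 0 throughout, and for PLA2G4A, PTGS1, PTGES, PTGES2 and PTGES3 with 30 µg/cm2 experiment 2 lies right of 0 and the other two lie left of it.

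The 2 doses at 24 h were also compared with each other. No member was called by edgeR's quasi-likelihood test, against 7.84% of all genes, with 4 members at an unadjusted p-value under 0.05 and 1 called by DESeq2. The shares of all genes at that unadjusted cut and by DESeq2 are not given here, so those counts have no background beside them. With the replicate block 2 members were called, where 15.6% of all genes were. These were HPGD, lower with 30 µg/cm2 at -2.80 (adjusted p = 0.0130, against 0.0646 without the block), and PTGER2 at -0.72 (adjusted p = 0.0374, against 0.0765). PTGER2 was also called without the 1 µg/cm2 library (adjusted p = 0.0157) or the 30 µg/cm2 library (0.0187) of experiment 2. PTGS2 was at 1.06 (SE 0.439, adjusted p = 0.151), called without the 30 µg/cm2 library of experiment 2 (0.0340), and PTGS1 at -0.70 (SE 0.360, adjusted p = 0.256), called without the 1 µg/cm2 library of experiment 2 (0.0338). Without all libraries of experiment 2, PTGS1, PTGS2, PTGES, PLA2G4A and PTGER2 were called. That fit called 3113 of all genes, against 1379 with all libraries, so more calls were general to it.

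Several members also differed between the vehicle controls of the protocols. In the repeated-protocol controls 4 members were called against the 24-h controls, 1 higher and 3 lower, where 21.9% of all genes were called, 11.1% higher and 10.8% lower. With the filter at 1 CPM, 3 members were called. HPGD was higher, with 29, 42 and 63 counts against 3, 8 and 8 and no overlap, or 2.61 higher on the log2 scale (SE 0.513, adjusted p = 0.00201). HPGD passed the filter on low counts only through libraries of the repeated protocol, so the filter favoured this direction. PTGER2 was lower at -1.02 (SE 0.246, adjusted p = 0.00707), with 3.42 to 3.95 CPM against 6.40 to 9.18 CPM. PTGES3 was lower at -0.86 (SE 0.161, adjusted p = 0.00143), with 331 to 365 CPM against 570 to 728 CPM. Cell type markers moved in the same comparison. Of the epithelial list EPCAM (1.17 on the log2 scale), CDH1 (1.36) and KRT19 (1.19) were called higher and KRT8 (-0.79) and KRT18 (-1.35) lower, and all of VIM (-1.19), CDH2 (-2.11) and FN1 (-1.43) were called lower. The mesenchymal sum was 860.5 to 933 CPM in the repeated-protocol controls and 1624 to 2822 CPM in those at 24 h, without overlap. The part of these shifts in the members' differences was not tested.

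PTGS2 was also lower in the repeated-protocol controls, with 6, 4 and 9 counts against 16, 12 and 23, at -1.52 (SE 0.502, adjusted p = 0.0354). That call was lost without control library 3 of the 24-h protocol (adjusted p = 0.125) and without control library 1 (0.0813), 2 (0.134) or 3 (0.0547) of the repeated protocol. PTGER4 was at -0.77 (SE 0.316, adjusted p = 0.0844), and without the 24-h control library of experiment 2 it was called at -1.14 (adjusted p = 0.00111). DESeq2 also called it, at -0.79 (adjusted p = 0.04999), which made 5 members by that tool. The share of all genes that DESeq2 called between the controls is not given here. The 21.9% above is of edgeR's quasi-likelihood test and is no background for that count. The ranges of the controls did not overlap for HPGD, PTGS2, PTGES, PTGES3 and PTGER2, or 5 of 9 members, against 52.3% of all genes. The controls of the repeated protocol thus held more HPGD and less PTGS2, PTGER2 and PTGES3 than those at 24 h. For HPGD the filter favoured this direction, and for PTGS2 the call rested on single libraries.

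Of 35 other eicosanoid genes on a list drawn up for the pathway, 23 passed the filter. With 30 µg/cm2 for 24 h, 2 were called higher and 2 lower, where 8.07% of all genes were called in either direction and 4.24% lower. The median log2 fold-change of the 23 was -0.02, against 0.03 over all genes tested. SLCO2A1, the transporter that takes up prostaglandins for breakdown, was at 0.492 ± 0.217 CPM in the controls and rose to 1.52 ± 0.554 CPM (SD, n = 3), by 1.63 on the log2 scale (SE 0.393, adjusted p = 0.0173), and was not called without control library 3 (0.0681). PLA2G4C, a calcium-independent cytosolic phospholipase A2, rose to 1.90 ± 0.223 CPM against 0.675 ± 0.0684 in the controls, by 1.49 on the log2 scale (SE 0.249, adjusted p = 0.00177). Its values with daily treatment were 1.53 ± 0.136 against 0.845 ± 0.107 CPM, which did not pass (adjusted p = 0.162).

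ANXA1, a phospholipase A2 inhibitor that glucocorticoids induce, fell from 493 ± 74.8 to 293 ± 19.6 CPM with 30 µg/cm2, by 0.75 on the log2 scale (adjusted p = 0.0203), and was not called without control library 3 (0.0735) or the 30 µg/cm2 library of experiment 1 (0.0763) or 3 (0.0840). PRXL2B, a prostamide and prostaglandin F synthase, fell by 0.66 (adjusted p = 0.0336), and was not called without control library 1 (0.0881) or 3 (0.105) or the 30 µg/cm2 library of experiment 1 (0.120) or 3 (0.102). Between the doses PLA2G4C was higher with 30 µg/cm2 at 1.38 (adjusted p = 0.00336) and PTGIS, prostacyclin synthase, was lower at -2.07 (adjusted p = 0.0140), the latter not called without the 30 µg/cm2 library of experiment 1 (0.0724) or 3 (0.0730). No gene of the list was called by edgeR's quasi-likelihood test with 1 µg/cm2 for 24 h or daily. At an unadjusted p-value under 0.05 there was 1 in each of these comparisons, and DESeq2 called 0. The share of all genes at that unadjusted cut is not given here.

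The same list differed between the vehicle controls of the protocols, with 1 of 23 genes called higher and 10 lower in the repeated protocol, where 11.1% of all genes were called higher and 10.8% lower. The epithelial and mesenchymal markers named above moved in this comparison too, and their part in it was not tested. SLCO2A1 was higher at 2.86 (SE 0.389, adjusted p = 0.000161), with 3.61 ± 0.311 against 0.492 ± 0.217 CPM. It was thus higher together with HPGD, the enzyme that acts on what it takes up. PTGR1, which reduces the oxidized prostaglandin that HPGD makes, was lower, with 94.4 ± 5.61 against 213 ± 23.1 CPM or -1.18 on the log2 scale (SE 0.133, adjusted p = 4.37e-05). The aldo-keto reductase AKR1C3, a prostaglandin F synthase, was lower at -2.33 (adjusted p = 0.00297). Both genes of the 5-lipoxygenase step of leukotriene synthesis were lower at low counts, ALOX5 with 3 to 5 counts per library against 12 to 24 (adjusted p = 0.00800) and its activating protein ALOX5AP with 0 to 1 against 8 to 15 (adjusted p = 0.00520). PLA2G15, ANXA1, CBR1, PRXL2B, the prostacyclin receptor PTGIR and thromboxane synthase TBXAS1 were lower by 0.74 to 2.34 on the log2 scale. PTGIR was not called without 24-h control library 3 (adjusted p = 0.0553). ALOX5, ALOX5AP and PTGIR passed the filter on low counts only through 24-h libraries, so the filter favoured their direction here. With the filter at 1 CPM, 8 genes of the list were called. TBXAS1 was not called without 24-h control library 2 (0.0507) or 3 (0.0727), or without repeated-protocol control library 1 (0.0777), 2 (0.0957) or 3 (0.0617).

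**Figure D5:**
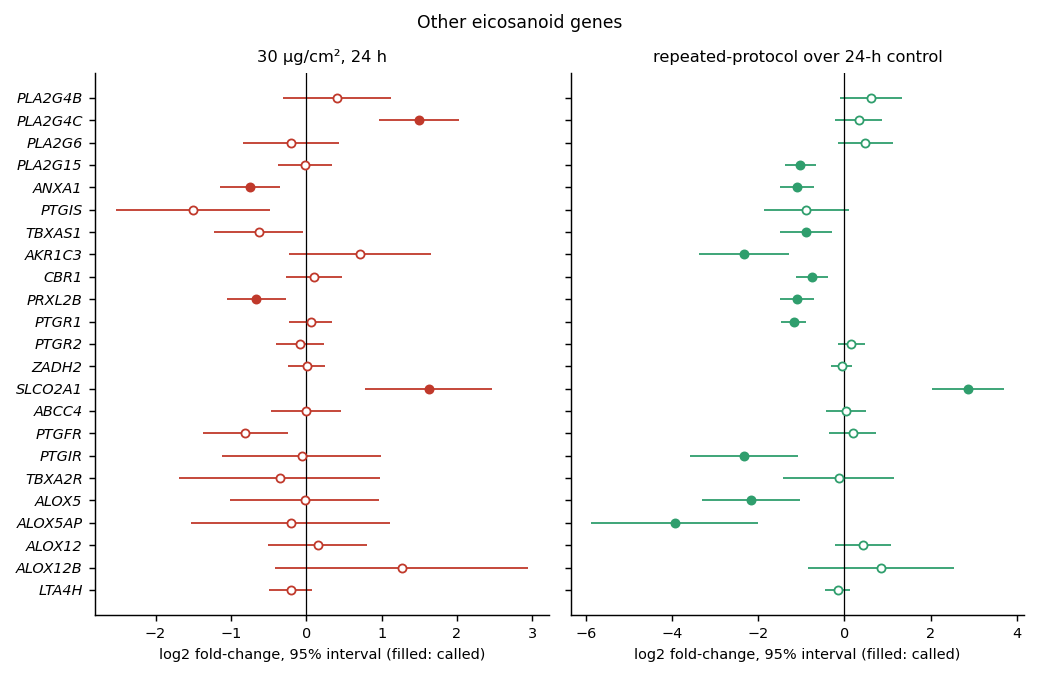
Log2 fold-change with the 95% interval of the 23 other eicosanoid genes tested, for 30 µg/cm2 against control at 24 h (left, red) and for the repeated-protocol control against the 24-h control (right, green); filled points passed both thresholds and the horizontal scales differ. There are 4 filled points on the left and 11 on the right, where SLCO2A1 alone is above 0.

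The genes whose log2 CPM followed PTGS2 most closely over the 15 libraries were KLF10 (Pearson r = 0.906), OTOF (0.905) and SERPINB8 (0.891). For HPGD they were PDE8B (0.978), ING3 (0.974) and CMPK2 (0.974). The 15 libraries share their conditions, protocols and experiments, so these values describe likeness of pattern, and for HPGD the largest step in that pattern was the one between the protocols.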

How the data were processed

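RNA-Seq libraries from 15 BEAS-2B cultures were analysed, in 5 conditions of 3 experiments, grouped by the sample labels. Poly-A RNA was sequenced as single-end reads of 50 bases. The authors aligned reads with STAR 2.5.3 and deposited featureCounts counts per gene without normalization. The methods name GRCh38 and the submitters' processing notes name another build; the coordinates in the table are those of GRCh38, where 57370 of 57437 named genes overlap their GENCODE position. The annotation and the strand setting of the counting are not given in the sources used here.

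Counts were filtered with filterByExpr by condition, scaled by TMM and fitted with edgeR 4.0.16 (glmQLFit in its earlier mode, R 4.3.3), with one mean per condition and all 15 libraries. SE is the log2 fold-change over the square root of F. RPKM divide CPM by the exon length in the table. The members, the eicosanoid and marker lists, the tests and the exclusion of 24-h experiment 2 were chosen with earlier results of these data known. Genes named are the members, eicosanoid genes called in a comparison with all 9 pairs of libraries changed one way, genes overlapping a member, the 3 genes most like PTGS2 and HPGD, and markers. PTGER1 and PTGER3 are named as the remaining receptors for prostaglandin E2. The fibroblast list summed to 59.5 to 128 CPM. Of the mesenchymal list VIM had 146 to 668 CPM, FN1 352 to 2409 CPM and CDH2 1.09 to 8.86 CPM.

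The series record gives the replicate number as the experimental batch, so numbers pair libraries within a protocol. Deviations from the condition means correlated at 0.201 to 0.721 between 24-h libraries of one number and -0.683 to 0.453 between numbers, and at 0.121 to 0.181 and -0.127 to -0.0341 in the repeated protocol. Alternatives were RLE and upper quartile scaling, other filters, the replicate block, only the compared libraries, edgeR's current and robust modes, DESeq2 1.42.0, the likelihood ratio test, and libraries left out. On simulated counts for 30 µg/cm2 against control at 24 h (17239 genes, 200 changed by 1.5 on the log2 scale) the fit recovered 59% and called 10 others. The simulated libraries held no differences shared within an experiment, unlike the 24-h libraries, so these rates may not hold for the data. Promoter windows are from RefSeq (GRCh38.p14), and all 9 members matched.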

Additional observations from a re-analysis of the deposited data

Results flagged for a closer look

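PTGS1 changed one way in all 3 experiments with 1 µg/cm2 for 24 h (log2 ratios 0.35, 0.15 and 0.22) and the other way in all 3 experiments with daily treatment (-0.28, -0.56 and -0.71). The difference between these responses was -0.77 on the log2 scale (SE 0.505, 95% interval -1.85 to 0.32, adjusted p = 0.830 by edgeR's quasi-likelihood test) and did not pass. Without 24-h experiment 2 it was -0.80 (adjusted p = 0.00364). No group held enough libraries for a check of single outlying values.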

How the results depend on the processing

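No call of a member or of a named eicosanoid gene changed its direction under any alternative run. With only the compared libraries fitted, members called fell to 0 of 9 with 30 µg/cm2 and rose to 1 with daily treatment, and eicosanoid genes called were 0 with 30 µg/cm2, 0 between the doses and 1 with daily treatment. With the replicate block, 1 member was called with daily treatment and 2 between the doses, and 8 eicosanoid genes with 30 µg/cm2, 1 with daily treatment and 4 between the doses. That block was entered separately in each protocol and changed no other member call. For the controls of the protocols, a replicate block shared by both was added after seeing the data: it called 5 members, PTGER4 among them at -0.70 (adjusted p = 0.0480), and 11 eicosanoid genes. The fit without that block called 4 members, 11 eicosanoid genes and 21.9% of all genes. The share of all genes called with that block is not given here. Control libraries of one number correlated at -0.159 to -0.0184 across protocols in their deviations from the condition means, so these numbers are not taken to pair them. Without 24-h experiment 2, members called were 5 with 30 µg/cm2, 2 with 1 µg/cm2, 5 between the doses and 1 for the difference between responses to 1 µg/cm2. Over all genes that fit called 3430, 378, 3113 and 1766 in the same order, against 1420, 11, 1379 and 0 with all libraries. Eicosanoid genes called in that fit were 2 with 1 µg/cm2, 6 between the doses and 1 for that difference. DESeq2 and the likelihood ratio test each called 1 member with daily treatment and 1 between the doses, and 1 was called with daily treatment without a filter. edgeR's current mode lost HPGD with 30 µg/cm2 (adjusted p = 0.0921) and PTGS2 between the controls (0.0509). PLA2G4C, ANXA1, PRXL2B, SLCO2A1 (30 µg/cm2) and PTGIS (between the doses) were not called with only the compared libraries (adjusted p = 0.0513, 0.0660, 0.165, 0.129 and 0.0828), and PRXL2B not without a filter (0.160). The causes were not tested.

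With each library left out in turn, members called ranged from 0 to 3 with 30 µg/cm2, 0 to 1 with 1 µg/cm2, 0 to 0 with daily treatment, 0 to 3 between the doses, 3 to 5 between the controls and 0 to 0 for the difference between responses. For the eicosanoid genes these ranges were 1 to 6, 0 to 0, 0 to 0, 1 to 3, 9 to 11 and 0 to 0. HPGD, PTGER2 and PTGES3 kept their calls between the controls in 17 of 17 alternatives each, although HPGD passed the main filter only through libraries of the repeated protocol. Over all genes tested, the 1420 calls with 30 µg/cm2 became 2681 with the block, 360 with only the compared libraries and 3430 without experiment 2. For 1 µg/cm2 at 24 h, 11 calls became 74, 2 and 378, and for the doses 1379 became 2737, 149 and 3113. With daily treatment 40 became 773 with the block, 1029 with only the compared libraries and 251 with DESeq2, and 0 calls for the difference between responses became 181, 20 and 1766 with the block, without a filter and without experiment 2. The PTGS2 share stayed within 1 SD without division by length, and 36 of 45 member levels did without TMM factors. Depth limits PTGS2 and HPGD most, at 4 to 44 and 0 to 82 counts.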
